A study of Homo sapiens with 16 samples.

Results

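The C/EBP transcription factor family was studied in RNA-Seq libraries of MUTZ-3 cells. Its members were taken by gene name, as the rows listed as *CEBPA*, *CEBPB*, *CEBPD*, *CEBPE*, *CEBPG* and *CEBPZ*, which are 6 of the 60623 genes in the count tables. All 6 members passed the filter on low counts in both experiments.

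MUTZ-3 is an acute myeloid leukaemia line with inv(3), the rearrangement that brings an enhancer of *GATA2* next to *EVI1* (listed in the files as *MECOM*), and was grown with GM-CSF and medium conditioned by a bladder carcinoma line. In the PARPi experiment, olaparib (10 µM), talazoparib (1 µM) or the vehicle DMSO was given for 12, 24 or 48 h, and untreated cells were sequenced at 0 h. In the knockdown experiment, cells carried a pLKO.1 vector with a non-targeting control (NTC), shEVI1-2531 or shEVI1-2532, were selected with puromycin, and were collected on day 3 and day 6. Each of these 16 conditions was sequenced as 1 library from 1 line, so time points, inhibitors or shRNAs stand in for replicates, and a p-value measures only the spread among these libraries. Olaparib and talazoparib block PARP enzymes, which act in DNA repair, and their doses differed.

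C/EBP proteins bind DNA as dimers through a basic region and a leucine zipper. C/EBP alpha is required for the step from early myeloid progenitors to granulocyte and monocyte progenitors, C/EBP beta drives macrophage genes and granulopoiesis under stress, C/EBP delta takes part in acute phase and inflammatory gene expression, and C/EBP epsilon directs late granulocyte and eosinophil genes. C/EBP gamma lacks a strong activation domain and pairs with other leucine zipper proteins, *ATF4* among them. *CEBPZ* carries the family name without being a leucine zipper protein of this kind, and its product resembles a nucleolar factor of ribosome assembly. In RNA from whole cultures, fewer cells of a type and less RNA per cell cannot be told apart.

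To show where the members are read from, the 200 bases before the start site were taken from RefSeq (GRCh38.p14) for *CEBPA* and *CEBPB*, which were called in the knockdown, and for *CEBPG*, which was not. Capitals mark matches on either strand to 3 of the 4 motifs searched, namely the CCAAT box (printed as ATTGG where it lies on the other strand), TGACG, the core of an ATF/CREB site, and TATAAA, the TATA box. The *CEBPA* window lies on the minus strand at chr19:33302535-33302734, the *CEBPB* window on the plus strand at chr20:50190630-50190829, and the *CEBPG* window on the plus strand at chr19:33373509-33373708.
CEBPA: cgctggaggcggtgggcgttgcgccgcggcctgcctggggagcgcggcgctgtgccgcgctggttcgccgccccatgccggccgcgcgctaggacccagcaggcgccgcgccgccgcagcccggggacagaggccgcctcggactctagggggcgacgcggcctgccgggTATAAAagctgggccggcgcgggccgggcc
CEBPB: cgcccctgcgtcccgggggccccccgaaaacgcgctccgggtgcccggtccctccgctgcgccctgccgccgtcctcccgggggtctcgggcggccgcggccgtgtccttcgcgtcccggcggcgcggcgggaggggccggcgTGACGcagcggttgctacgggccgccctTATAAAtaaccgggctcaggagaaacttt
CEBPG: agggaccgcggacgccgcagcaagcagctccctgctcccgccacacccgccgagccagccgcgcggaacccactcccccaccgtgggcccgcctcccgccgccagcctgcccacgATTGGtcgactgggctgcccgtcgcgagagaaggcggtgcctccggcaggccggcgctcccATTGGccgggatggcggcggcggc
TATAAA begins 30 bases before the *CEBPA* start and 29 bases before the *CEBPB* start, where TGACG precedes it at 57 bases. CCAAT occurs at 2 positions before *CEBPG*, beginning 85 and 24 bases ahead of the start printed here. RefSeq gives *CEBPB* and *CEBPG* another start each (chr20:50190583 and chr19:33374113), and the 200 bases before those match none of the 4 motifs. In GENCODE v29 *CEBPA* and *CEBPB* begin inside the printed windows (at 33302564 and 50190734), and *CEBPG* begins upstream of its window (at 33373330). TATAAA was held by 8.59% of the 35116 windows of the same length, CCAAT by 28.0% and TGACG by 18.4%. The C/EBP motif TTNNGNAA, held by 26.8% of all windows, has no match in any of the 7 windows that RefSeq gives for 5 of the members, which says only that these letters are not in these 200 bases. The motifs do not overlap one another in the printed windows.

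In the files (hg38) *CEBPA* (ENSG00000245848) spans chr19:33299934-33302534 on the minus strand and *CEBPG* (ENSG00000153879) spans chr19:33373685-33382686 on the plus strand of the same chromosome. *CEBPB* (ENSG00000172216) lies at chr20:50190830-50192668 on the plus strand, and *CEBPD* (ENSG00000221869) at chr8:47736913-47738164, *CEBPE* (ENSG00000092067) at chr14:23117304-23119616 and *CEBPZ* (ENSG00000115816) at chr2:37201612-37231596 on the minus strand. *CEBPA*, *CEBPB* and *CEBPD* have 1 exon in the GENCODE v29 annotation, *CEBPE* 2, *CEBPG* 3 and *CEBPZ* 17, counted as merged exon blocks.

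Depth was 55999673 to 72681943 counts per library in the PARPi experiment and 95523038 to 120716213 in the knockdown, and the members held 1221 to 18266 counts in any library. The 3 counts taken as the floor equal 0.0249 to 0.0536 CPM. CPM are counts as parts of the library total, after TMM scaling of that total, computed within each experiment, so that levels are compared within an experiment only. *MECOM* checked the knockdown. It was at 40.6 and 37.2 CPM with NTC, at 13.2 and 17.5 with shEVI1-2531 and at 5.14 and 4.31 with shEVI1-2532 on day 3 and day 6. The myeloid markers *PTPRC*, *CD33*, *SPI1* and *MPO* were at 76.2 CPM or more in all 16 libraries, whereas *CD14* ranged from 0.435 to 96.1 CPM and *CD34* from 3.61 to 644 CPM. Of the epithelial genes that such conditioned medium might bring, *KRT5* was at 0 in all 16 libraries, *EPCAM* reached at most 3 counts and *CDH1* at most 1, while *KRT7*, *KRT8* and *KRT18* were expressed.

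Levels of different members were compared per kilobase of exon (GENCODE v29), while counting used the gene bounds of the files. *CEBPD* spans 1252 bp in the files against 2178 bp of exon in GENCODE v29, so its values per kilobase are too low. *CEBPA* spans 2601 bp against 2631 bp. The place of *CEBPD* in the orders below, also against *CEBPA*, is therefore not settled. With the GENCODE v29 lengths *CEBPA* had the highest median in both experiments, 38.4 CPM per kilobase in the PARPi experiment and 47.0 in the knockdown. *CEBPG* had the lowest, 11.9 and 10.8 CPM per kilobase. Between them the order in the PARPi experiment was *CEBPZ* (25.3), *CEBPE* (23.4), *CEBPD* (21.1) and *CEBPB* (17.2), and in the knockdown *CEBPD* (34.2), *CEBPB* (24.1), *CEBPE* (23.6) and *CEBPZ* (13.5). Neighbours in either order overlapped in their ranges over libraries, except *CEBPZ* (11.3 to 22.8) and *CEBPG* (9.5 to 11.1) in the knockdown. These medians pool treatments, and *CEBPA* was not the highest in every library. *CEBPE* was above it with olaparib at 48 h (55.4 against 32.5 CPM per kilobase) and with talazoparib at 24 h (40.2 against 34.1) and 48 h (80.9 against 39.1). Even with these lengths *CEBPD* was above *CEBPA* with talazoparib at 48 h (44.0 against 39.1) and with shEVI1-2532 on day 3 (45.8 against 44.4) and day 6 (59.8 against 53.1). *CEBPZ* was above *CEBPA* in DMSO at 48 h (27.1 against 22.1) and NTC on day 3 (22.8 against 20.8).

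The first question was which members changed when PARP was inhibited. Across all time points and both inhibitors, *CEBPB* was higher than in DMSO, and no other member passed the test. With edgeR's quasi-likelihood test and Benjamini-Hochberg adjustment over 17218 genes, 1 of 6 members was called, beside 4.17% of all genes tested. The median log2 change over the 6 members was 0.29, and over all genes -0.01. Both inhibitors share the DMSO library of each hour.

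*CEBPB* had the smallest p of the members. It stood at 19.4, 20.5 and 18.6 CPM in DMSO at 12, 24 and 48 h, at 31.8, 35.5 and 41.6 CPM with olaparib, and at 25.7, 35.7 and 59.5 CPM with talazoparib. All 6 inhibitor libraries lay above all 3 DMSO libraries, which was true of 1 member and of 8.17% of all genes tested. Its mean log2 change was 0.92 ± 0.19 (SE), a 1.89-fold difference, and edgeR's adjusted p was 0.0459. Untreated cells at 0 h held 60.0 CPM, as much as talazoparib at 48 h, and DMSO at 12 h had 32.3% of that level. *CEBPB* therefore stood higher with the inhibitors than in vehicle and no higher than in the untreated library, which has no inhibitor library of its hour and enters no test. The call ended without olaparib at 12 h (edgeR adjusted p 0.102), DMSO at 24 h (0.197), olaparib at 24 h (0.151), talazoparib at 24 h (0.128) or olaparib at 48 h (0.132), with log2 changes of 0.88 to 0.98, and with a filter of 1 CPM in every library (0.0611) or no time point in the model (0.18). The call also ended at a threshold of 0.01 and without the 24 h libraries, where 0 of all genes were called. Over all alternatives the log2 change stayed between 0.67 and 1.10 and the adjusted p between 0.000498 and 0.34, the highest without the 24 h libraries.

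*CEBPE*, the factor of late granulocytes, was at 32.5, 36.2 and 22.3 CPM in DMSO, at 36.6, 44.4 and 86.0 CPM with olaparib and at 35.2, 62.5 and 126 CPM with talazoparib. The libraries at 12 h were close together and those at 48 h far apart. It was higher than DMSO of the same hour in 6 of 6 pairs, from 1.08-fold with talazoparib at 12 h to 5.63-fold with talazoparib at 48 h, and the mean log2 change of 0.87 ± 0.35 (SE) had an edgeR adjusted p of 0.117. The log2 change was 1.30 without DMSO at 12 h (adjusted p 0.0289, past the threshold) and 0.33 without DMSO at 48 h (0.223).

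*CEBPA* and *CEBPD* differed among the DMSO libraries themselves. *CEBPA* was at 128 CPM in DMSO at 12 h, at 99.0 at 24 h and at 58.2 at 48 h, which are values of single libraries without a test. It was at 140, 110 and 85.6 CPM with olaparib and at 115, 89.7 and 103 CPM with talazoparib. Both inhibitors were thus above DMSO at 48 h, and talazoparib was below it at 12 and 24 h. *CEBPD* was at 28.9, 59.3 and 34.3 CPM in DMSO, at 36.5, 55.4 and 69.8 CPM with olaparib and at 22.2, 57.6 and 95.9 CPM with talazoparib, so that the groups were together at 24 h and apart at 48 h. The mean log2 changes, 0.22 ± 0.16 for *CEBPA* and 0.36 ± 0.28 for *CEBPD* (SE), had edgeR adjusted p-values of 0.365 and 0.375. Without DMSO at 48 h they became -0.02 and -0.04, so both means rested on that library.

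*CEBPG* and *CEBPZ* stood lower with the inhibitors. *CEBPG* was at 59.5, 56.2 and 60.4 CPM in DMSO, at 53.9, 51.4 and 41.7 CPM with olaparib and at 48.0, 49.5 and 40.02 CPM with talazoparib. *CEBPZ* was at 113, 109 and 98.5 CPM in DMSO, at 94.5, 91.5 and 77.9 CPM with olaparib and at 81.1, 92.2 and 54.7 CPM with talazoparib. For each of these genes all 6 inhibitor libraries lay below all 3 DMSO libraries, which was true of 2 of 6 members and of 6.5% of all genes tested. The mean log2 changes were -0.32 ± 0.10 and -0.40 ± 0.11 (SE), and the edgeR adjusted p-values of 0.0778 and 0.0629 missed the threshold. DESeq2 called *CEBPZ* with an adjusted p of 0.0242 and did not call *CEBPG*. The untreated library had 65.1 CPM of *CEBPG* and 72.6 CPM of *CEBPZ*, for *CEBPZ* below every DMSO library.

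**Figure D1:**
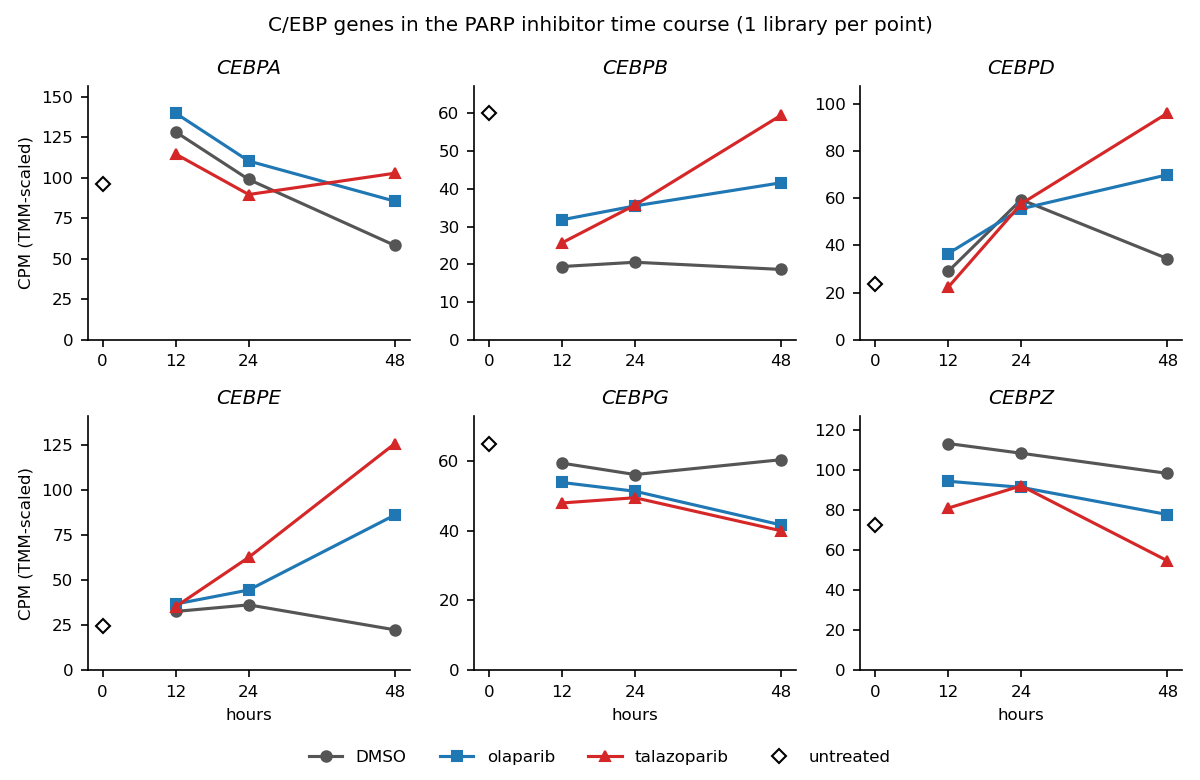
TMM-scaled CPM of the 6 genes (y axis, from 0) against hours of treatment (x axis). Each point is 1 library, with DMSO as circles, olaparib as squares, talazoparib as triangles and untreated cells as an open diamond. *CEBPB* separates from DMSO at every hour, and *CEBPE*, *CEBPD* and *CEBPA* are farthest from DMSO at 48 h, where *CEBPE* reached 126 CPM.

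Olaparib and talazoparib were then taken apart. No member was called for olaparib, beside 0.639% of all genes, and *CEBPB* alone was called for talazoparib, beside 4.0% of all genes. *CEBPB* had a log2 change of 0.87 ± 0.21 (SE) with olaparib and 0.97 ± 0.22 with talazoparib, and edgeR's adjusted p-values were 0.134 and 0.0497. The talazoparib call is at the edge of the threshold. It ended under 12 of 20 alternatives, among them DESeq2 size factors in the edgeR fit, where the adjusted p was 0.0503, and without olaparib at 12 h (0.0889), 24 h (0.11) or 48 h (0.0935), DMSO at 24 h (0.159), or talazoparib at 24 h (0.158) or 48 h (0.117). For olaparib, *CEBPB* was called without DMSO at 12 h (0.0304) and without talazoparib at 48 h (0.0309). Talazoparib gave *CEBPE* a log2 change of 1.05 ± 0.39 (SE, adjusted p 0.0956), called without DMSO (1.46, 0.0232) or talazoparib (1.40, 0.0432) at 12 h and at 0.50 (0.0827) without DMSO at 48 h. *CEBPZ* had one of -0.52 ± 0.13 (0.0516), called without DMSO at 12 h (0.0389) and at -0.38 (0.153) without talazoparib at 48 h. Without the 48 h libraries *CEBPB* with talazoparib was at 0.59 (0.0278).

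The difference of talazoparib minus olaparib was called for no member, and for 0.0% of all genes, at doses that differed (10 µM olaparib and 1 µM talazoparib). In edgeR's quasi-likelihood test 354 genes had an unadjusted p under 0.05, and DESeq2 called 1 gene. The largest difference was that of *CEBPE*, a log2 value of 0.36 with a 95% interval from -0.49 to 1.22. *CEBPZ* differed by -0.23 (interval -0.54 to 0.07) and *CEBPB* by 0.10 (interval -0.39 to 0.59). The intervals of *CEBPA* (-0.52 to 0.34), *CEBPD* (-0.74 to 0.70) and *CEBPG* (-0.37 to 0.19) held 0 as well, and they leave room for differences in either direction. At 48 h the libraries of both inhibitors stood apart for *CEBPE*, *CEBPD*, *CEBPB* and *CEBPA*, with talazoparib higher in each, and single libraries allow no test of that hour.

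Whether the inhibitor effect grew with time was tested with a slope on the log2 of hours. *CEBPA*, *CEBPB*, *CEBPD* and *CEBPE* had rising slopes, and *CEBPG* and *CEBPZ* none that passed. In this fit 4 of 6 members were called, beside 19.8% of all genes. The slope of *CEBPE* was the steepest, a log2 change of 1.04 ± 0.14 (SE) for each doubling of time (edgeR adjusted p 5.5e-12), followed by *CEBPD* at 0.64 ± 0.14 (5.9e-05), *CEBPB* at 0.43 ± 0.14 (0.012) and *CEBPA* at 0.35 ± 0.13 (0.043). The single pairs behind the steepest slopes were as follows. *CEBPE* had log2 ratios to DMSO of 0.17, 0.30 and 1.95 with olaparib and of 0.11, 0.79 and 2.49 with talazoparib at 12, 24 and 48 h. *CEBPD* went from 0.34 and -0.38 at 12 h to 1.02 and 1.48 at 48 h.

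The slopes rest on few libraries. The fit left 2 residual degrees of freedom and edgeR gave all genes a shared spread, so a member's own scatter carried almost no weight. Without DMSO at 48 h no member had a called slope, and those of *CEBPE*, *CEBPB*, *CEBPA* and *CEBPD* were 0.40, 0.23, 0.03 and -0.05. *CEBPE* stayed called in the other leave-one-out fits. Without DMSO at 12 h the slopes of *CEBPE*, *CEBPD* and *CEBPA* were 1.68, 1.32 and 0.68, and without talazoparib at 12 h that of *CEBPA* was 0.55. *CEBPD* was lost without olaparib at 48 h (slope 0.40, adjusted p 0.285). *CEBPB* was lost without DMSO at 12 h (0.115), olaparib at 12 h (0.167), olaparib at 48 h (0.256) or talazoparib at 48 h (0.121), and *CEBPA* without these (0.0974, 0.292, 0.27 and 0.536) and without DMSO (0.051) or olaparib (0.0767) at 24 h. Scaling by library totals ended the calls of *CEBPB* (0.12) and *CEBPA* (0.229), and fitting without a filter on low counts that of *CEBPA* (0.0902).

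**Figure D2:**
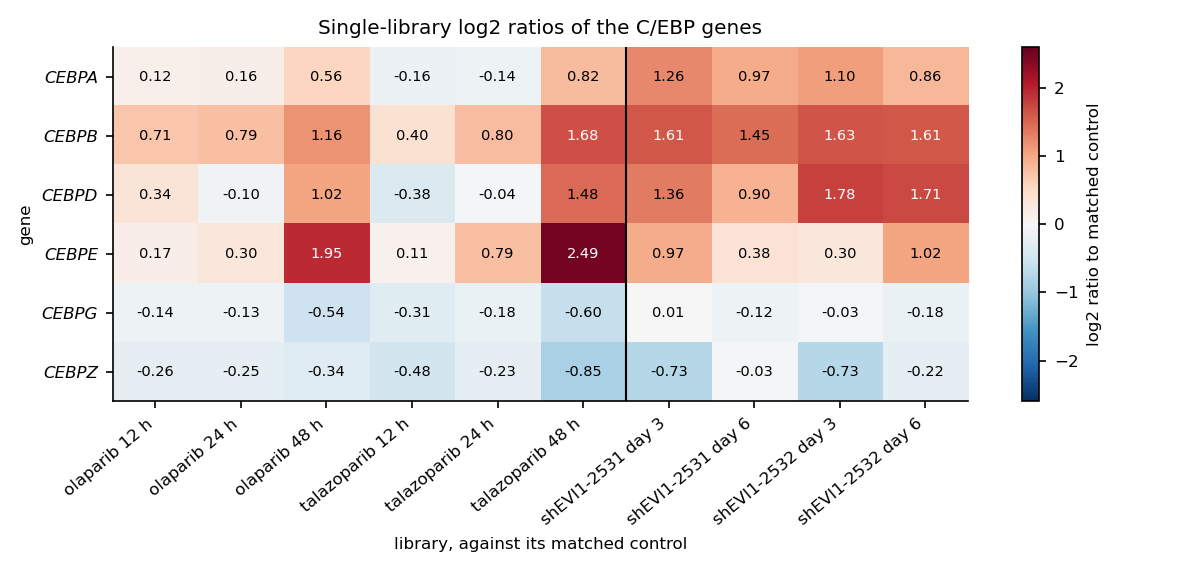
Log2 ratio of TMM-scaled CPM of each treated library to its control of the same hour or day, for 6 genes (rows) and 10 pairs (columns). Red is higher than the control and blue lower, and a black line divides inhibitors from shRNAs. The darkest red is *CEBPE* with talazoparib at 48 h (2.49), and the *CEBPB* row is red in all 10 pairs.

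The second question was which members changed when *EVI1* was knocked down. *CEBPA* and *CEBPB* were higher when both shRNAs were read as 1 group. *CEBPD* and *CEBPE* were higher than NTC in all 4 libraries without passing that test, *CEBPG* was close to NTC, and *CEBPZ* was below NTC on day 3. With both shRNAs as 1 group, 2 of 6 members were called, beside 1.66% of all genes. The median log2 change was 0.88 over the members and 0.02 over all genes. All 4 shEVI1 libraries lay above both NTC libraries for 4 members, *CEBPA*, *CEBPB*, *CEBPD* and *CEBPE*, and for 14.8% of all genes. They lay below for no member and for 15.4% of all genes.

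*CEBPB* was at 15.4 and 19.8 CPM with NTC on day 3 and day 6, at 46.8 and 54.2 CPM with shEVI1-2531 and at 47.5 and 60.2 CPM with shEVI1-2532. The 4 ratios to NTC of the same day were within a narrow band, 2.74-fold to 3.09-fold. *CEBPB* was 2.98-fold higher with both shRNAs, a log2 change of 1.57 ± 0.17 (SE) with an edgeR adjusted p of 0.0222. *CEBPA* was at 54.7 and 77.2 CPM with NTC, at 131 and 151 CPM with shEVI1-2531 and at 117 and 140 CPM with shEVI1-2532, 1.81-fold to 2.39-fold higher. Its log2 change was 1.04 ± 0.16 (SE, edgeR adjusted p 0.0448). Both calls ended without either NTC library (adjusted p 0.531 to 0.607) and without shEVI1-2531 at day 6 (0.054 for *CEBPB* and 0.0781 for *CEBPA*), and that of *CEBPA* also without shEVI1-2532 at day 3 (0.0603) or day 6 (0.0746), with library totals (0.0742) or with no day in the model (0.0631). The log2 changes in those fits were 1.48 to 1.63 for *CEBPB* and 0.81 to 1.20 for *CEBPA*.

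*CEBPD* was at 29.1 and 39.7 CPM with NTC, at 74.5 and 74.3 CPM with shEVI1-2531 and at 99.8 and 130 CPM with shEVI1-2532. It stood higher with the shRNA that left less *MECOM* RNA. The log2 change over both shRNAs, 1.47 ± 0.28 (SE), had an edgeR adjusted p of 0.0576, and it was called without shEVI1-2531 at day 3 (0.0474). *CEBPE* was at 29.1 and 28.9 CPM with NTC, at 56.9 and 37.6 CPM with shEVI1-2531 and at 35.9 and 58.7 CPM with shEVI1-2532. The higher of its values fell on day 3 for the first shRNA and on day 6 for the second, and the log2 change of 0.71 ± 0.27 (SE) was not called (edgeR adjusted p 0.185).

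*CEBPG* showed no change that could be told from the spread. It was at 48.6 and 47.3 CPM with NTC, at 48.8 and 43.4 CPM with shEVI1-2531 and at 47.7 and 41.9 CPM with shEVI1-2532, and the 95% interval of its log2 change ran from -0.44 to 0.28. *CEBPZ* was at 82.7 CPM with NTC on day 3 and 48.1 CPM on day 6, a difference within the control itself. Both shRNAs had 60.2% of the NTC level on day 3 (49.7 and 49.8 CPM), and on day 6 they had 98.1% (47.2 CPM) and 85.6% (41.2 CPM). The groups overlapped over both days, and the log2 change of -0.44 ± 0.19 (SE) was not called (edgeR adjusted p 0.226).

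**Figure D3:**
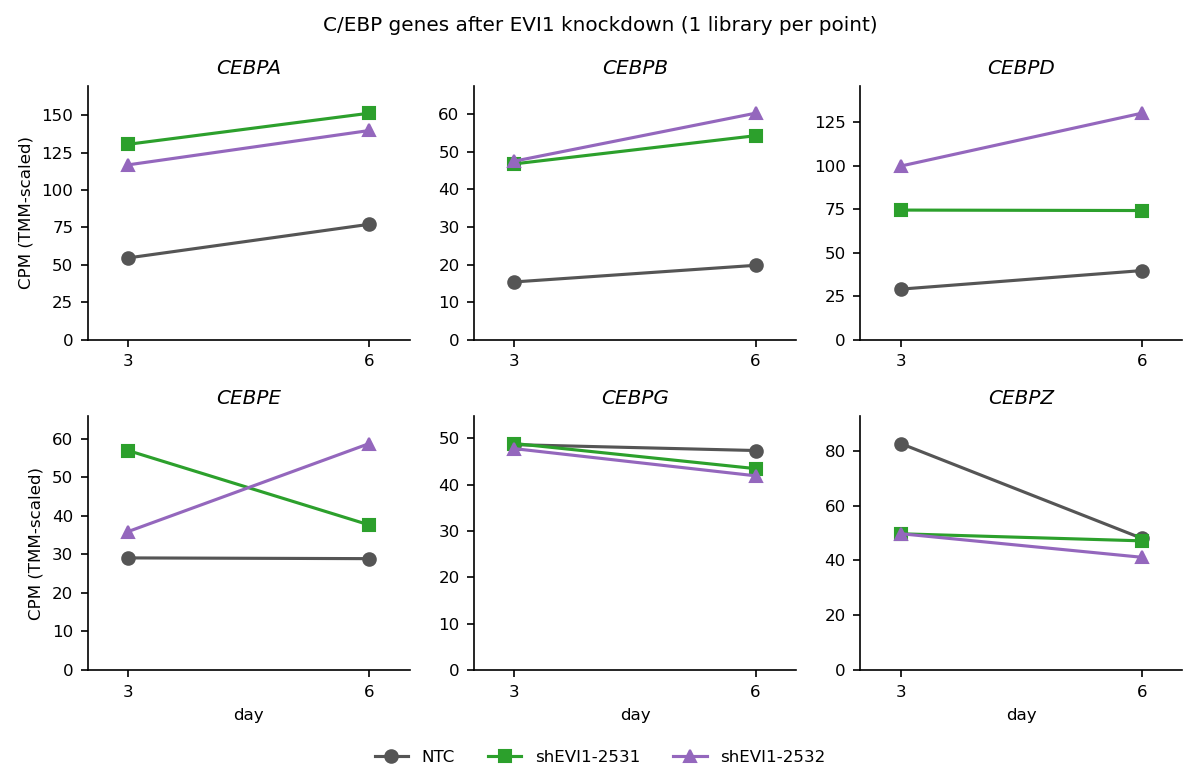
TMM-scaled CPM of the 6 genes (y axis, from 0) on day 3 and day 6 (x axis), 1 library per point, with NTC as circles, shEVI1-2531 as squares and shEVI1-2532 as triangles. *CEBPA*, *CEBPB*, *CEBPD* and *CEBPE* lie above NTC on both days. *CEBPZ* in NTC is at 82.7 CPM on day 3 and 48.1 CPM on day 6.

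Each shRNA was then compared with NTC in a fit of 3 groups. With shEVI1-2531, 3 of 6 members were called, beside 17.4% of all genes, and all 3 were higher. They were *CEBPB* (log2 change 1.53 ± 0.15, edgeR adjusted p 5.7e-05), *CEBPA* (1.11 ± 0.13, 0.000197) and *CEBPD* (1.13 ± 0.15, 0.000357). These calls held in every leave-one-out fit, and with no day in the model those of *CEBPA* (0.062) and *CEBPD* (0.0577) ended. *CEBPE*, at 0.71 ± 0.24 (SE, edgeR adjusted p 0.061), passed in 6 of 15 alternatives, among them without either library of shEVI1-2532 (0.003 and 0.00404) and without shEVI1-2531 at day 6 (log2 change 1.16, adjusted p 1.1e-06). Without shEVI1-2531 at day 3 it was at 0.19 (0.745). *CEBPZ*, at -0.39 ± 0.17 (adjusted p 0.145), was called without NTC at day 6 (0.0394) and without shEVI1-2531 at day 6 (0.0306), and was at -0.11 (0.775) without NTC at day 3 and at -0.16 (0.779) without shEVI1-2531 at day 3.

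With shEVI1-2532, 5 of 6 members were called, beside 41.1% of all genes, so a call alone says little here. *CEBPD* rose by 1.74 ± 0.15 on the log2 scale (SE, edgeR adjusted p 3.98e-06), *CEBPB* by 1.62 ± 0.15 (6.68e-06), *CEBPA* by 0.97 ± 0.13 (0.000117) and *CEBPE* by 0.70 ± 0.24 (0.0331). *CEBPZ* fell by 0.49 ± 0.17 (0.0369). The calls of *CEBPA*, *CEBPB* and *CEBPD* held in all 15 alternatives. That of *CEBPE* was lost without NTC at day 3 (0.141), NTC at day 6 (0.156) or shEVI1-2532 at day 6 (log2 change 0.15, adjusted p 0.701), and that of *CEBPZ* without NTC at day 3 (-0.23, 0.376) or shEVI1-2532 at day 3 (-0.40, 0.188). The changes were larger without shEVI1-2532 at day 3 for *CEBPE* (1.17) and without NTC at day 6 for *CEBPZ* (-0.77). With no day in the model both ended (0.142 and 0.248), and with library totals *CEBPE* was at 0.39 (0.202) and *CEBPG* was called at -0.40 (0.0414).

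The shRNAs differed for 1 of 6 members, beside 24.2% of all genes. *CEBPD* was 1.53-fold higher with shEVI1-2532 than with shEVI1-2531, a log2 difference of 0.61 ± 0.15 (SE, edgeR adjusted p 0.0103). This call was lost without shEVI1-2531 at day 6 (0.37, adjusted p 0.196) or shEVI1-2532 at day 6 (0.53, 0.0596), and with no day in the model (0.216). *CEBPA* and *CEBPB* differed by -0.14 (95% interval -0.43 to 0.15) and 0.09 (-0.23 to 0.40), and *MECOM* differed by -1.70 ± 0.20. The intervals of *CEBPE* (-0.53 to 0.52), *CEBPG* (-0.35 to 0.27) and *CEBPZ* (-0.48 to 0.27) held 0.

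**Figure D4:**
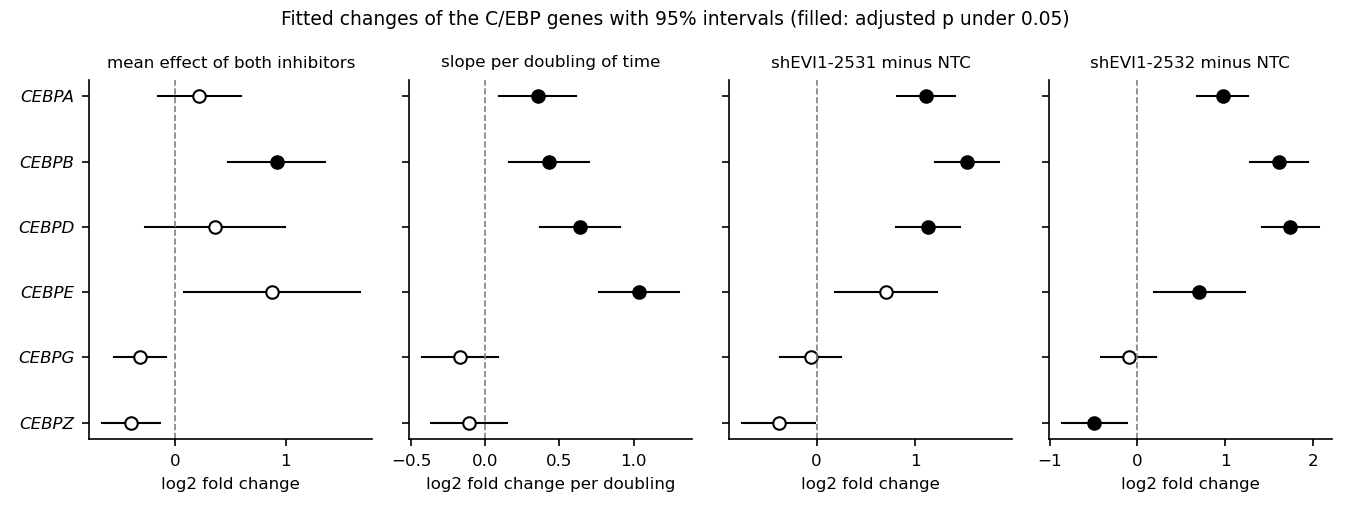
Fitted log2 fold change of the 6 genes (rows) with 95% intervals, in 4 panels for the mean effect of both inhibitors, the slope of that effect per doubling of time, shEVI1-2531 and shEVI1-2532. Filled points have an adjusted p under 0.05. *CEBPB* is filled in all 4 panels and *CEBPG* in none.

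Some members overlap other genes in the files, and whether counting used strand is not given in the sources used here. *CEBPB-AS1*, antisense to *CEBPB*, held at most 47 counts in any library, against at least 1221 for *CEBPB*. *CEBPZOS*, antisense to *CEBPZ*, held at most 34 counts, against at least 2620, and *AC007390.2*, also on the other strand, at most 9. *AC008738.3* and *AC008738.5*, opposite *CEBPA*, were at 0 in all 16 libraries. *CEBPA-DT*, transcribed away from *CEBPA* on the other strand without overlap, held 97 to 514 counts. Its log2 change was 0.54 with shEVI1-2531 and -0.50 with shEVI1-2532, neither called (edgeR adjusted p 0.142 and 0.115), while *CEBPA* rose with both. Between the shRNAs *CEBPA-DT* was called lower with shEVI1-2532, beside 24.2% of all genes called in that comparison. This call did not hold in every alternative.

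Genes known as targets or partners of the factors were read beside them, as counts without a test of the lists, which were put together with earlier results of these data known. Of all genes, 4.17% were called in the mean PARPi effect, 19.8% in the slope, 17.4% with shEVI1-2531 and 41.1% with shEVI1-2532. Medians over all genes were between -0.01 and 0.01 in the 4 comparisons used here. With both shRNAs as 1 group, where 1.66% of all genes were called, fewer genes of the lists passed. Called higher were 4 of 19 targets of C/EBP beta and delta and 1 of 16 targets of C/EBP alpha. None passed among the C/EBP epsilon targets, the amino acid response genes, the ribosome assembly genes or the regulators and partners. The first list held genes of inflammation and the acute phase linked to C/EBP beta and C/EBP delta. Of 19 tested genes, 6 rose in the mean PARPi effect and none fell, with a median log2 change of 1.6. They included *CCL3* (2.22 ± 0.33, edgeR adjusted p 0.0206), *TNF* (1.91 ± 0.33), *IL1B* (2.01 ± 0.36) and *CCL2* (1.67 ± 0.35), which encode chemokines (*CCL3*, *CCL2*) and inflammatory cytokines (*TNF*, *IL1B*). In the slope over time 16 of 19 rose, led by *CD14* (2.12 ± 0.15), the lipopolysaccharide co-receptor of monocytes, and *S100A12*, *S100A8* and *S100A9*, calcium-binding proteins of myeloid cells (1.88, 1.66 and 1.61). With shEVI1-2531 13 of 19 rose and with shEVI1-2532 17 of 19, and none fell with either. The medians were 1.37 and 2.43, and with a filter of 1 CPM in every library that of shEVI1-2531 was 0.87. *CD14* (4.60 and 5.14), *CCL2* (1.85 and 2.86) and *HP*, haptoglobin (2.17 and 4.20), were among the genes of smallest p for both shRNAs. Over all alternatives the number of genes called higher was 0 to 19 in the mean effect, 10 to 17 in the slope, 5 to 14 with shEVI1-2531 and 14 to 18 with shEVI1-2532.

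Targets of C/EBP epsilon are mostly genes of late granules. Of 16 listed, 7 were tested in the PARPi experiment and 10 in the knockdown. All 7 tested had a rising slope under the inhibitors, with a median of 1.21 per doubling of time, led by *MMP9*, the gelatinase of tertiary granules (1.89 ± 0.15), *LYZ*, lysozyme (1.45 ± 0.14), and *CHI3L1*, a chitinase-like protein of specific granules (1.47 ± 0.16). None was called in the mean effect, where *BPI*, a bactericidal protein, was at 0.96 ± 0.23 (edgeR adjusted p 0.0514). Over all alternatives, which include a fit without a filter on low counts, 0 to 8 were called higher in the mean effect. With shEVI1-2531 5 of 10 rose and with shEVI1-2532 6 of 10, *LYZ* by 2.59 and 4.85 and *MMP9* by 2.97 and 5.98 on the log2 scale. Over all alternatives 1 to 7 were called higher in the slope, 4 to 6 with shEVI1-2531 and 6 to 8 with shEVI1-2532.

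Targets of C/EBP alpha were called in both directions. None was called in the mean PARPi effect (median 0.19), and over all alternatives 0 to 7 were called higher and 0 to 4 lower. Of 16 tested, 5 had a rising and 2 a falling slope, and the median slope was -0.04. With shEVI1-2531 7 rose and 3 fell, and with shEVI1-2532 12 rose and none fell. *ITGAM*, the integrin CD11b, rose by 1.62 and 3.27, whereas *ELANE*, neutrophil elastase of primary granules, fell by 2.81 ± 0.22 with shEVI1-2531. Over all alternatives 2 to 7 rose and 0 to 4 fell in the slope, 4 to 9 rose and 1 to 4 fell with shEVI1-2531, and for shEVI1-2532 the numbers were 10 to 13 higher and 0 to 3 lower. *LYZ*, *HP* and *CD14* stand on more than 1 of these lists and are counted in each.

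Genes of the amino acid response, where C/EBP gamma pairs with *ATF4*, made up the next list. In the mean PARPi effect *SESN2*, which restrains growth signalling, was the 1 gene called (0.78 ± 0.14), and the list median was -0.57. Of 13 tested, 9 had a falling slope and 1 a rising slope under the inhibitors. *PHGDH*, of serine synthesis, fell by 2.58 ± 0.14 for each doubling of time, and *ASNS*, asparagine synthetase, by 2.04 ± 0.32. *NUPR1*, a stress response regulator, rose by 1.5 ± 0.22. With shEVI1-2532 7 fell and 3 rose, with log2 changes of -1.58 ± 0.13 for *ATF4* itself and -5.55 ± 0.22 for *PHGDH*, and with shEVI1-2531 4 fell and 2 rose. *CEBPG* was not called in any of these comparisons. Over all alternatives 1 to 10 of the list had a falling slope, 2 to 7 fell with shEVI1-2531 and 4 to 8 with shEVI1-2532. The list median of the mean effect ran from -0.80 without the 12 h libraries to 0.30 without the 48 h libraries, so its direction rested on the time points kept.

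For *CEBPZ* the list held 20 nucleolar genes of ribosome assembly. In the mean PARPi effect 3 of 20 fell and none rose, namely *NOC3L*, a relative of the factor *CEBPZ* resembles, *NOP56* of the box C/D particle, and *DKC1*, the pseudouridine synthase, with log2 changes of -0.67, -0.62 and -0.60. The median was -0.40, as was the change of *CEBPZ*, which itself was not called. No gene of the list had a called slope. With shEVI1-2531 2 fell and 1 rose, and with shEVI1-2532 6 fell and 2 rose, with medians of -0.07 and -0.23. The numbers called, 3 and 8 of 20, are near the shares of all genes. Over all alternatives 0 to 13 fell in the mean effect and 0 to 7 in the slope, 0 to 4 with shEVI1-2531 and 3 to 14 with shEVI1-2532.

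**Figure D5:**
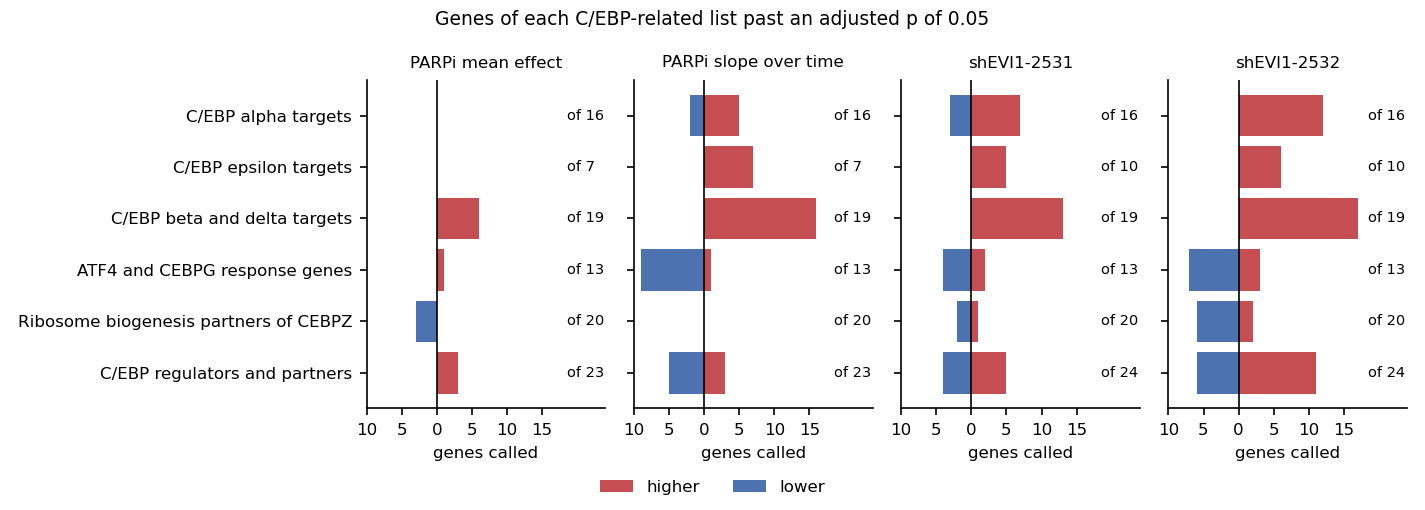
Number of genes called higher (red, to the right) and lower (blue, to the left) on each of 6 gene lists, in 4 comparisons, with the number of genes tested at the right of each bar. Targets of C/EBP beta and C/EBP delta reach 17 of 19 with shEVI1-2532, and the amino acid response list has 9 of 13 called lower in the slope.

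Of the factors that control or partner C/EBP proteins, 23 were tested in the PARPi experiment and 24 in the knockdown. *JUN* and *FOS*, leucine zipper partners, rose in the mean PARPi effect by 1.07 ± 0.12 and 1.74 ± 0.35 (edgeR adjusted p 0.0127 and 0.0411), as did *ZFPM1*, a cofactor of GATA proteins, by 0.54 ± 0.11. These were the 3 genes of the list called, and none was lower, although 0 to 5 were called lower over all alternatives. *MECOM* had a falling slope, -0.94 ± 0.13, and 3 genes of the list rose and 5 fell in that fit. Over all alternatives 0 to 3 rose and 0 to 6 fell in the slope. In the knockdown with shEVI1-2532 11 rose and 6 fell, among them *BATF2*, another leucine zipper protein (2.23 ± 0.21), and *PARP1* (-1.20 ± 0.13). With shEVI1-2531 5 rose and 4 fell, *BATF2* again among those that rose (1.28 ± 0.21). Over all alternatives 0 to 7 rose in the mean effect, 0 to 6 rose and 1 to 5 fell with shEVI1-2531, and 7 to 11 rose and 4 to 9 fell with shEVI1-2532.

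Markers of cell state went in both directions. Of the 7 myeloid markers none was called in the mean PARPi effect, 2 rose and 3 fell in the slope, 4 rose and 1 fell with shEVI1-2531, and 3 rose and 2 fell with shEVI1-2532. *CD14* was at 2.78 CPM in DMSO at 48 h, at 64.5 with olaparib and at 96.1 with talazoparib, and of the libraries at 12 h or later *CEBPE*, *CEBPD* and *CEBPB* were highest in the same pair. At 24 h *CD14* was at 5.34 CPM in DMSO and at 24.9 and 26.1 with the inhibitors, while *CEBPD* was at 59.3, 55.4 and 57.6 CPM. With NTC *CD14* was at 0.435 and 0.579 CPM, and with the shRNAs between 10.6 and 25.5. *CD34*, of progenitors, was at 373, 280 and 419 CPM in DMSO at 12, 24 and 48 h. It was at 308, 204 and 152 CPM with olaparib and at 435, 241 and 111 CPM with talazoparib. In the knockdown *CD34* was at 289 and 644 CPM with NTC and at 3.61 to 88.1 with the shRNAs. *KIT*, a receptor of progenitors, was at 34.0 and 18.7 CPM with NTC, at 41.2 and 41.7 with shEVI1-2531 and at 11.5 and 9.45 with shEVI1-2532.

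Of the 8 epithelial genes *EPCAM*, *CDH1* and *KRT5* were at or near 0, and the summed CPM was 14.3 to 16.8 in DMSO and 16.6 to 27.8 with the inhibitors, 16.4 and 25.7 with NTC and 17.8 to 36.3 with the shRNAs. The genes in the sum went opposite ways. *KRT7* was at 6.35 and 11.6 CPM with NTC and at 0.92 to 2.13 with the shRNAs, while *KRT8* was at 3.79 and 5.36 with NTC and at 6.53 to 15.2 with the shRNAs, and *KRT18* at 6.10 and 8.69 and at 10.3 to 20.6. With shEVI1-2531 1 of 4 tested fell, and with shEVI1-2532 2 rose and 1 fell. The part of cell composition in the members' differences was not tested.

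The genes whose log2 ratios followed a member most closely over the 10 pairs were sought among the 8716 genes tested in both experiments whose mean log2 CPM exceeded 3 in each. They were *PODXL2*, *LMAN2L* and *TESC* for *CEBPA* (Pearson r 0.965, 0.965 and 0.965) and *PTTG1IP*, *GM2A* and *COTL1* for *CEBPB* (0.989, 0.977 and 0.976). *ZNF622*, *PRELID1* and *LRPAP1* followed *CEBPD* (0.983, 0.971 and 0.968), and *MYL6*, *CLC* and *SERTAD3* followed *CEBPE* (0.987, 0.972 and 0.968). *TARS*, *SQLE* and *TMA16* followed *CEBPG* (0.979, 0.97 and 0.953), and *DIS3*, *DCAF10* and *FAM76B* followed *CEBPZ* (0.983, 0.965 and 0.961). *CLC* encodes the Charcot-Leyden crystal protein of eosinophils, and *TARS* a threonyl-tRNA synthetase. Among the members, *CEBPA*, *CEBPB* and *CEBPD* were close to one another (0.906 to 0.952), and *CEBPE* and *CEBPG* ran opposite (-0.771). The pairs pool both experiments, so a difference between experiments enters r. The log2 ratios of *CEBPA*, for example, were 0.86 to 1.26 in the 4 knockdown pairs and -0.16 to 0.82 in the 6 PARPi pairs. The 10 pairs share 5 control libraries and are few, and the best of 8716 genes are high by selection, so these values are a description.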

How the data were processed

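RNA was sequenced from 16 MUTZ-3 libraries with the TruSeq Stranded mRNA kit. The authors deposited raw counts per gene and TPM for each library. STAR, Picard, featureCounts and hg38 (GRCh38) are named, without versions, in the submitters' processing notes, while the annotation and the strand setting of counting are not given in the sources used here. The deposited TPM divide the counts by the whole gene span, introns included (largest deviation below 1e-06), and were not used here. The deposited name of the shEVI1-2531 libraries carries another number, so their identity rests on the labels.

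The members and gene lists were chosen with earlier results of these data known. Genes that reached 10 counts in 3 or more of 9 libraries (PARPi) or 2 or more of 6 (knockdown) were tested with the quasi-likelihood test of edgeR 4.0.16 in R 4.3.3 after TMM scaling, with time point or day as a factor and Benjamini-Hochberg adjustment over all genes tested. A gene was called at an adjusted p under 0.05. The untreated library entered no test. The mean of both inhibitors, each inhibitor and their difference came from 1 fit (4 residual degrees of freedom), the slope on log2 hours from another (2), both shRNAs as 1 group from a fit with 3, and the shRNAs as separate groups from a fit with 2. Single-library ratios carry exact 95% binomial intervals, and these and the floor of 3 counts cover counting error only.

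Named were all 6 members, *MECOM*, overlapping genes, at most 4 genes of smallest p per list and comparison, and the 3 genes most correlated with each member. Exon lengths came from GENCODE v29 and promoters from RefSeq. The alternatives were other scaling, other filters, DESeq2 1.42.0, a threshold of 0.01, no time point or day, NTC alone with 1 shRNA, and leaving out libraries or time points. The fits were tested on simulated data. Python 3.11.15, pandas 2.3.3, scipy 1.17.1 and matplotlib 3.10.9 were used for tables and figures.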

Additional observations from a re-analysis of the deposited data

Results flagged for a closer look

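The effect of the inhibitors differed between time points for 4 members, as tested by the slope of the effect on log2 hours in edgeR's quasi-likelihood test. The slope per doubling of time was 0.35 for *CEBPA* (adjusted p 0.043), 0.43 for *CEBPB* (0.012), 0.64 for *CEBPD* (5.9e-05) and 1.04 for *CEBPE* (5.5e-12). Without DMSO at 48 h the slopes were 0.03, 0.23, -0.05 and 0.40, and none of them was called. The effect of the shRNAs differed for *CEBPD*, by 0.61 on the log2 scale for shEVI1-2532 minus shEVI1-2531 (edgeR adjusted p 0.0103). It was 0.37 without shEVI1-2531 at day 6 and 0.53 without shEVI1-2532 at day 6, and neither was called.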

How the results depend on the processing

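Over the 54 results of the members, 785 of 924 alternatives kept the direction and the side of the threshold, 68 lost a call, 33 gained one and 38 turned the direction. The number of members called in the mean PARPi effect was 0 at a threshold of 0.01, with a filter of 1 CPM in every library or without time point, and 3 with DESeq2 or without a filter. For olaparib it was 1 with DESeq2 or without a filter. For talazoparib it was 0 at 0.01, with DESeq2 size factors, library totals, the 1 CPM filter or no time point, and 3 with DESeq2 or no filter. For the slope it was 2 at 0.01 or with library totals. For both shRNAs it was 0 at 0.01, 1 with library totals, and 3 with DESeq2 or without a filter. It was 1 for shEVI1-2531 without day, 3 for shEVI1-2532 at 0.01 or without day, and 0 for the difference of the shRNAs at 0.01 or without day. Leaving out a library or time point gave 0 to 2 members for the mean effect, 0 to 1 for olaparib, 0 to 3 for talazoparib, 0 to 4 for the slope, 0 to 3 for both shRNAs, 3 to 5 for either shRNA and 0 to 1 for the difference of the shRNAs.

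Directions turned as follows, given as the range of the log2 change over fits that left out a library or time point. The mean effect ran from -0.016 to 0.34 for *CEBPA* and from -0.042 to 0.60 for *CEBPD*. Olaparib gave *CEBPD* -0.011 to 0.62, and talazoparib gave *CEBPA* -0.16 to 0.34 and *CEBPD* -0.21 to 0.68. Talazoparib minus olaparib ran from -0.37 to 0.041 for *CEBPA*, -0.22 to 0.32 for *CEBPB*, -0.49 to 0.30 for *CEBPD* and -0.075 to 0.66 for *CEBPE*, and for *CEBPD* it was 0.011 with upper quartile scaling and 0.12 without time point. Slopes ran from -0.047 to 1.32 for *CEBPD*, -0.41 to 0.069 for *CEBPG* and -0.35 to 0.14 for *CEBPZ*. *CEBPG* ran from -0.20 to 0.0088 for both shRNAs and from -0.17 to 0.039 for shEVI1-2531. shEVI1-2532 minus shEVI1-2531 ran from -0.018 to 0.15 for *CEBPB*, -0.52 to 0.49 for *CEBPE*, -0.10 to 0.0019 for *CEBPG* and -0.32 to 0.098 for *CEBPZ*. In that difference *CEBPB* was -0.047 with library totals, and *CEBPE* was 0.0024 with the 1 CPM filter and 0.0022 without day. List medians also turned. Those of the regulators and partners ran from -0.03 to 0.08 for olaparib, -0.12 to 0.06 for the slope, -0.12 to 0.18 for shEVI1-2531, -0.08 to 0.32 for shEVI1-2532 and -0.05 to 0.29 for the difference of the shRNAs, turning with library totals in the knockdown. The amino acid response list ran from -0.80 to 0.30 for the mean effect, -0.81 to 0.12 for olaparib, -0.80 to 0.47 for talazoparib and -0.21 to 0.23 for their difference, the C/EBP beta and delta targets from -0.15 to 0.69 for that difference, the C/EBP alpha targets from -0.15 to 0.19 for the slope, and the ribosome list from -0.23 to 0.03 for shEVI1-2531. The cause was not tested.

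Over all genes, the number called ranged over alternatives from 0 to 4721 for the mean effect (718 as reported), 0 to 1764 for olaparib (110), 0 to 5005 for talazoparib (688), 0 to 5 for their difference (0), 258 to 3816 for the slope (3412), 0 to 2728 for both shRNAs (308), 565 to 3999 for shEVI1-2531 (3235), 3536 to 8482 for shEVI1-2532 (7648) and 921 to 5118 for the difference of the shRNAs (4505). With library totals the median log2 change of all genes was -0.10 for talazoparib, -0.12 for the slope, -0.21 for both shRNAs, -0.16 for shEVI1-2531, -0.30 for shEVI1-2532 and -0.11 for their difference. Higher against lower calls then went from 1721 and 1691 to 1091 and 2424 for the slope, from 516 and 172 to 162 and 17 for talazoparib, from 158 and 150 to 111 and 240 for both shRNAs, from 1765 and 1470 to 1049 and 2270 for shEVI1-2531, from 3942 and 3706 to 2360 and 5956 for shEVI1-2532 and from 2271 and 2234 to 1524 and 3000 for their difference. Leaving out a library of an arm with 2 leaves 1, which is assumed to vary like the other groups.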
